A study of Mus musculus with 30 samples.

Results

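Ebf1 encodes EBF1, a transcription factor of the B-cell lineage, and the values below describe its RNA and the peaks of chromatin proteins and histone marks along its locus in mouse B-cell progenitors. The members are 1 gene of the 12834 with a probe kept for the fit, which has 2 array probes named Ebf1, and the 114 peaks, of 323966 in 24 peak lists, that lie in an 800 kb window of mouse build mm8, chr11:44200000-45000000. The window was chosen by position and the probes by name, so no measured value set the membership. At the window's low edge, the nearest peaks were an H3K27me3 peak of EBF-/- cells that ended 14.8 kb outside it (score 14) and an H3K4me1 peak of RAG1-/- cells that began 24.8 kb inside it (score 73). At the high edge, an H3K4me1 peak of RAG1-/- cells ended 0.071 kb inside (score 27) and an H3K4me2 peak of RAG1-/- cells began 3.86 kb outside (score 17).

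All samples came from mice of strain C57BL/6 or from cells labelled with that strain. RAG1-/- pro-B cells cannot rearrange their antigen receptor genes. They were taken from bone marrow by B220 enrichment, then grown in IL-7 and SCF over 10 d. EBF-/- pre-pro-B cells and E2A-/- pre-pro-B cells lack EBF1 or the E proteins of the E2A gene (Tcf3), and both shared their dishes with S17 stromal cells in IL-7, FLT3 ligand and SCF. Where RAG1-/- cells are compared, culture and genotype cannot be told apart. RNA of each of these 3 genotypes was measured in 2 samples on two-colour arrays. Chromatin immunoprecipitation sequencing (ChIP-seq) of RAG1-/- cells targeted 4 factors (E2A, EBF1, FOXO1 and CTCF) and 5 histone marks, and that of EBF-/- cells E2A and the 5 marks. E2A-/- pre-pro-B cells were profiled for E2A and H3K4me1 after infection with a retrovirus for E47-ER, which is E2A of full length joined to the estrogen receptor's hormone-binding domain. For H3K4me1 a further library carried bHLH-ER, a shortened form without the activation domains. After 21 h the cells received 1 µM tamoxifen for 6 h or 1 h, and those with human CD25, encoded on the same virus, were enriched. The same constructs were used for 6 h in A12, an E2A-/- line labelled as double-positive T cells. A mock immunoprecipitation in wild-type lymphoid cells grown on S17 cells was the control. Each ChIP condition was 1 library, so peak lists were described and not tested.

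EBF1 acts with E2A, FOXO1 and PAX5 to switch on the genes of the pre-B-cell receptor and its signalling, and mice without EBF1 stop B-cell development at the pre-pro-B stage. E proteins bind the short sequence called an E-box, and E2A is known as an activator of Ebf1. Mono- and dimethylation of histone H3 lysine 4 are usual at enhancers, trimethylation and acetylation at active promoters, and H3K27me3 at silenced genes. CTCF binds insulators and the anchors of chromatin loops.

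RefSeq lists 2 start sites for Ebf1, 2128 bases apart on the plus strand in build GRCm38.p6. The 250 bases before each are shown because E2A, EBF1 and FOXO1, whose motifs were searched, were among the factors mapped across the gene. Capitals mark a match to any of 3 motifs searched on both strands, CANNTG (E-box), TCCCNNGGGA (EBF) and GTAAACA (FOXO).
Start site 1, chr11:44617850-44618099: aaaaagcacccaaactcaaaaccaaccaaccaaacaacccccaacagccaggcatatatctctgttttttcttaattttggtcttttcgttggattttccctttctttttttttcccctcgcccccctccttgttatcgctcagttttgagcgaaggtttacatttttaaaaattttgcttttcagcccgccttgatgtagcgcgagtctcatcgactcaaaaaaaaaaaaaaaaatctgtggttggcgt
Start site 2, chr11:44619978-44620227: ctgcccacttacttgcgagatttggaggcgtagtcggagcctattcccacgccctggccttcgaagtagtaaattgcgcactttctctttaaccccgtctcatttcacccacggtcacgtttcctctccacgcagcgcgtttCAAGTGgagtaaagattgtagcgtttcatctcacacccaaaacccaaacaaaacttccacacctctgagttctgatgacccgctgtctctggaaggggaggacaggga
The sequence before start site 1 held no match to any of them, and that before start site 2 held 1 E-box, which began 108 bases before the start. Over the same 250 bases of 32851 RefSeq promoters, 66.2% held an E-box, 0.779% the EBF motif and 3.17% the FOXO motif. A match is only a match of letters. These positions belong to another build than the peaks and were not placed on mm8.

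At the probe of its RefSeq transcript, Ebf1 levels were highest in RAG1-/- pro-B cells, lower in EBF-/- pre-pro-B cells and lowest in E2A-/- pre-pro-B cells. The step between RAG1-/- and EBF-/- cells did not pass in the limma fit below. At the other probe only RAG1-/- cells were well above background. The probe of the RefSeq transcript NM_007897 lies at chr11:44848286-44848345 (mm8) on the plus strand and is called the 3′-side probe, because it is the one further along that strand. Its log2 levels were 12.55 and 12.38 in RAG1-/- cells, 10.87 and 10.91 in EBF-/- cells, and 6.94 and 5.38 in E2A-/- cells. No 2 groups overlapped, and only the second E2A-/- sample was not well above background. These levels stood at the 84.1th and 82.5th percentiles of all kept probes in RAG1-/- cells, at the 66.4th and 66.9th in EBF-/- cells, and at the 22.6th and 11.4th in E2A-/- cells.

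In the limma fit over all kept probes, this probe was 6.29 (SE 0.44, n = 2 each) higher on the log2 scale in RAG1-/- than in E2A-/- cells, a 78.5-fold difference (adjusted p = 0.0013). It was 4.75 (SE 0.44, n = 2 each) higher in EBF-/- than in E2A-/- cells (adjusted p = 0.0060). Between RAG1-/- and EBF-/- cells the difference was 1.54 (SE 0.45, n = 2 each), or 2.91-fold, and did not pass (adjusted p = 0.0555). This adjusted p crossed 0.05 under several alternatives. Both RAG1-/- samples lay above both EBF-/- samples, but how many kept probes separate in this way was not counted, so that adds little. With normexp background correction the limma differences were 5.04 between RAG1-/- and E2A-/- cells and 3.58 between EBF-/- and E2A-/- cells, more than 1.5 times smaller as folds.

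The labels do not say which part of Ebf1 is deleted in EBF-/- mice, so signal at this probe in EBF-/- cells neither checks the label nor shows that EBF1 protein was made. E2A-/- replicate 1 stood apart from replicate 2. The 12 pro-B markers, a list of genes of the B-cell receptor and its assembly, averaged 9.87 on the log2 scale in replicate 1, with 12 of 12 well above background, and 6.61 in replicate 2, with 5 of 12. The lowest log2 level well above background was 3.88 in replicate 1 and 6.86 in replicate 2, so these 2 counts rest on unlike floors. Of all spots, 61.8% and 40.9% were well above background in these samples. The pro-B markers averaged 14.9 and 14.8 in RAG1-/- cells and 7.53 and 7.62 in EBF-/- cells. The 3′-side Ebf1 probe moved the same way between the E2A-/- samples, and the part of these cells in its level was not tested. Without replicate 1 the limma difference from RAG1-/- cells was 7.14 (adjusted p = 0.00083), and without replicate 2 it was 5.48 (adjusted p = 0.0019). In these and all other fits that leave 1 sample in a group, the lone sample is assumed to vary like the other groups. Replicate 2 was not well above background, so the size of 7.14 is uncertain. In RNA of whole cultures, fewer cells that express Ebf1 and less Ebf1 RNA per cell cannot be told apart.

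The second Ebf1 probe lies 355.7 kb before the first, at chr11:44492539-44492598 on the plus strand, and was designed to AK036716, a bone cDNA clone that the array annotation calls unclassifiable. It is called the 5′-side probe. Its log2 levels were 8.36 and 8.26 in RAG1-/- cells, 4.54 and 3.42 in EBF-/- cells, and 3.01 and 3.03 in E2A-/- cells. Only the RAG1-/- samples were well above background. The level was at least 5.96-fold higher in RAG1-/- than in EBF-/- cells (limma adjusted p = 0.0050) and at least 7.66-fold higher than in E2A-/- cells (limma adjusted p = 0.0026). For each bound, every dim sample was given its lowest signal well above background, or the probe's own value where that was higher, and the mean of the bright group was set against the mean of these. EBF-/- and E2A-/- cells were both dim, so no fold is given (limma adjusted p = 0.25). The bounds hold for the processed signals only. On normexp-corrected values the fitted difference from EBF-/- cells was 1.95 in place of 4.34 on the log2 scale, and that from E2A-/- cells 2.06 in place of 5.32, both smaller than the bounds. Fitted differences at this probe are set against signals not well above background, so their size moves with the correction. Without RAG1-/- replicate 1 the difference from EBF-/- cells did not pass (4.02, limma adjusted p = 0.070), nor did it without RAG1-/- replicate 2 (4.68, limma adjusted p = 0.0504).

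Counted together, 1 of 2 Ebf1 probes passed as higher in RAG1-/- than in EBF-/- cells, where 19.4% of all kept probes did. Both passed as higher in RAG1-/- than in E2A-/- cells, where 20.2% did, and 1 of 2 as higher in EBF-/- than in E2A-/- cells, where 10.3% did. Neither passed as lower in any of these comparisons, where 19.1%, 19.7% and 10.1% of kept probes did. The 5′-side probe was kept only because its RAG1-/- samples were well above background, so it could hardly pass as lower in RAG1-/- cells. Its passes as higher there are partly built in by the filter, and the shares of all kept probes are no measure for them. At the 3′-side probe EBF-/- cells lay between the other genotypes, while at the 5′-side probe they were, like E2A-/- cells, not well above background, so that the order of these 2 genotypes there was not resolved.

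Ratios were also read on shared arrays. On the array that carried E2A-/- replicate 1 with RAG1-/- replicate 1, the deposited log ratio of E2A-/- over RAG1-/- was -5.62 on the log2 scale at the 3′-side probe (scanner error 0.574) and -6.55 at the 5′-side probe (scanner error 0.672), where the E2A-/- channel was not well above background. On the array of EBF-/- replicate 1 with E2A-/- replicate 2, EBF-/- over E2A-/- was 5.76 at the 3′-side probe (scanner error 0.594), where the E2A-/- channel was again not well above background. At the 5′-side probe neither channel was, and that ratio was 0.268 (scanner error 1.70), within its error. The size of each ratio over such a channel is uncertain.

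**Figure D1:**
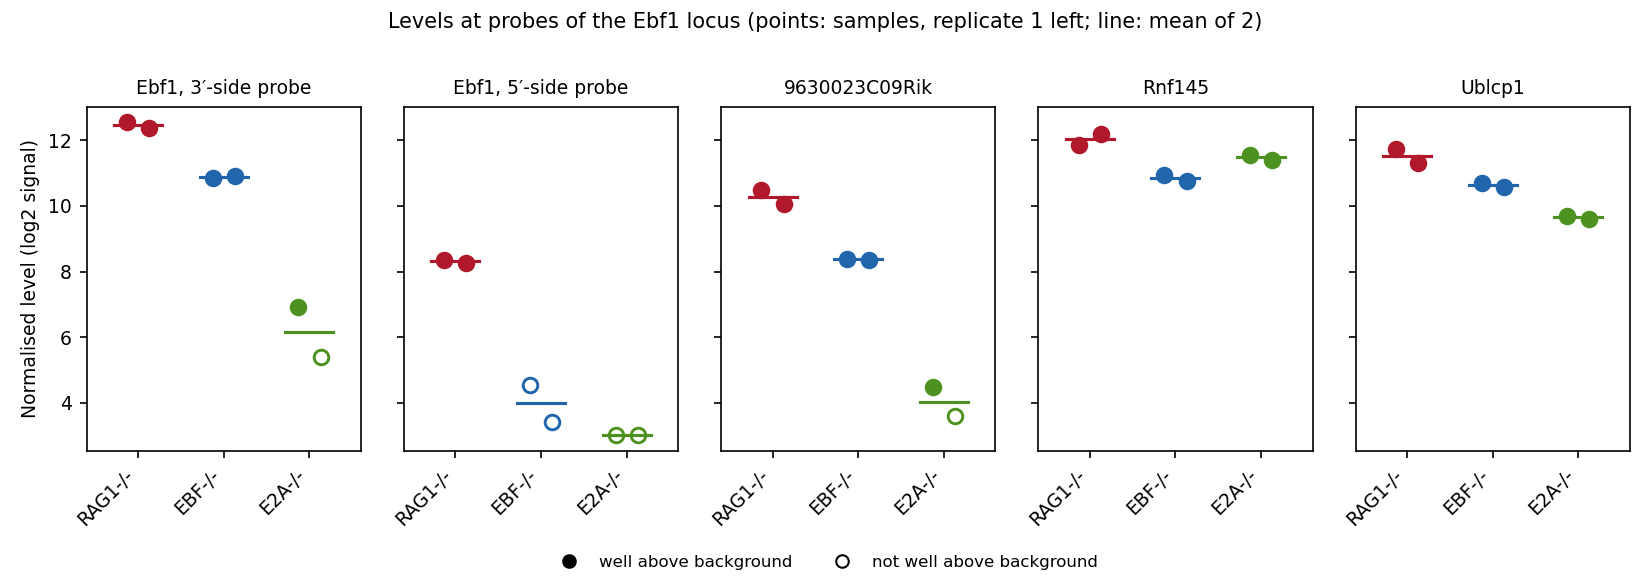
Normalised log2 levels (y axis) of both Ebf1 probes and of probes for 9630023C09Rik, Rnf145 and Ublcp1 in the same window, by genotype (x axis). Points are samples, lines the mean of 2, and open points are not well above background; at the 3′-side Ebf1 probe and 9630023C09Rik the genotypes form the same order, with E2A-/- cells lowest, while EBF-/- cells were lowest at Rnf145.

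The array carries 10 probes in the window, and 8 of them are not named Ebf1. The probe of 9630023C09Rik, designed to the cDNA AK084616, lies between the Ebf1 probes at chr11:44583284-44583343 on the same strand. Its log2 levels were 10.50 and 10.05 in RAG1-/- cells, 8.38 and 8.36 in EBF-/- cells, and 4.47 and 3.61 in E2A-/- cells, again without overlap. The limma differences were 1.88 (SE 0.35, adjusted p = 0.017) between RAG1-/- and EBF-/- cells and 6.23 (SE 0.35, adjusted p = 0.00083) between RAG1-/- and E2A-/- cells. EBF-/- cells were 4.35 (SE 0.35, adjusted p = 0.0044) higher than E2A-/- cells. Whether this cDNA is part of an Ebf1 transcript cannot be read from the array.

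AK034802, a further cDNA probe on the plus strand at chr11:44770915-44770974, had log2 levels of 7.04 and 5.79 in RAG1-/- cells, 4.25 and 5.22 in EBF-/- cells, and 3.32 and 4.39 in E2A-/- cells. Only the RAG1-/- samples were well above background, and the level there was at least 1.60-fold that in EBF-/- cells (limma adjusted p = 0.039) and at least 2.06-fold that in E2A-/- cells (limma adjusted p = 0.011). AK042875, on the plus strand 370.7 kb before the 3′-side probe, gave 6.09 and 5.71 in RAG1-/- cells, 5.00 and 5.03 in EBF-/- cells, and 5.43 and 3.02 in E2A-/- cells, and passed no limma comparison (adjusted p between 0.17 and 0.53). AK051846 on the plus strand and AK043298 on the minus strand were not well above background in any sample.

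Upstream of Ebf1 lie probes for Il12b, Ublcp1 and Rnf145. Il12b encodes the p40 subunit of IL-12 and IL-23, and its 10 spots were not well above background in any sample. Ublcp1, a phosphatase of the proteasome, had log2 levels of 11.75 and 11.32 in RAG1-/- cells, 10.71 and 10.57 in EBF-/- cells, and 9.69 and 9.62 in E2A-/- cells. It therefore kept the order of the 3′-side Ebf1 probe, with limma differences of 0.89 between RAG1-/- and EBF-/- cells (adjusted p = 0.017), 1.89 between RAG1-/- and E2A-/- cells (adjusted p = 0.0021) and 1.00 between EBF-/- and E2A-/- cells (adjusted p = 0.022). Rnf145, a ubiquitin ligase of the endoplasmic reticulum, gave 11.87 and 12.19 in RAG1-/- cells, 10.96 and 10.76 in EBF-/- cells, and 11.57 and 11.40 in E2A-/- cells. Rnf145 was 1.17 higher in RAG1-/- than in EBF-/- cells (limma adjusted p = 0.0019), but EBF-/- cells were 0.62 below E2A-/- cells (limma adjusted p = 0.015), the opposite of Ebf1.

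Of 12833 other genes, the one whose profile over the 6 samples was nearest to the 3′-side probe was 9630023C09Rik. Likeness was the root mean square difference between levels centred on each gene's own mean, and it was 0.277 on the log2 scale for 9630023C09Rik, against a median of 2.73 over all genes. Bend5 (0.278), Zfp783 (0.294), Rag1 (0.339), Galnt14 (0.418) and Ccdc166 (0.429) came next. Rag1, a subunit of the enzyme that cuts antigen receptor genes, had log2 levels of 10.52 and 11.12 in RAG1-/- cells, 9.79 and 9.58 in EBF-/- cells, and 5.57 and 4.40 in E2A-/- cells. The deleted part of Rag1 is not given in the labels either, so its signal in RAG1-/- cells checks nothing.

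Nearest to the 5′-side probe were Grtp1 (0.307), Lig4 (0.385), Sgk1 (0.396), Tmem71 (0.429), Cers4 (0.438) and Sulf2 (0.447), against a median of 2.34. Since the EBF-/- and E2A-/- samples were not well above background at this probe, likeness to it rests on the RAG1-/- samples and on the step below them. No gene stood in both groups of 6. Lig4, the ligase that joins broken antigen receptor genes, showed the step of that probe at a brighter level. Its log2 levels were 12.20 and 12.19 in RAG1-/- cells, 8.23 and 7.85 in EBF-/- cells, and 7.70 and 7.58 in E2A-/- cells.

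**Figure D2:**
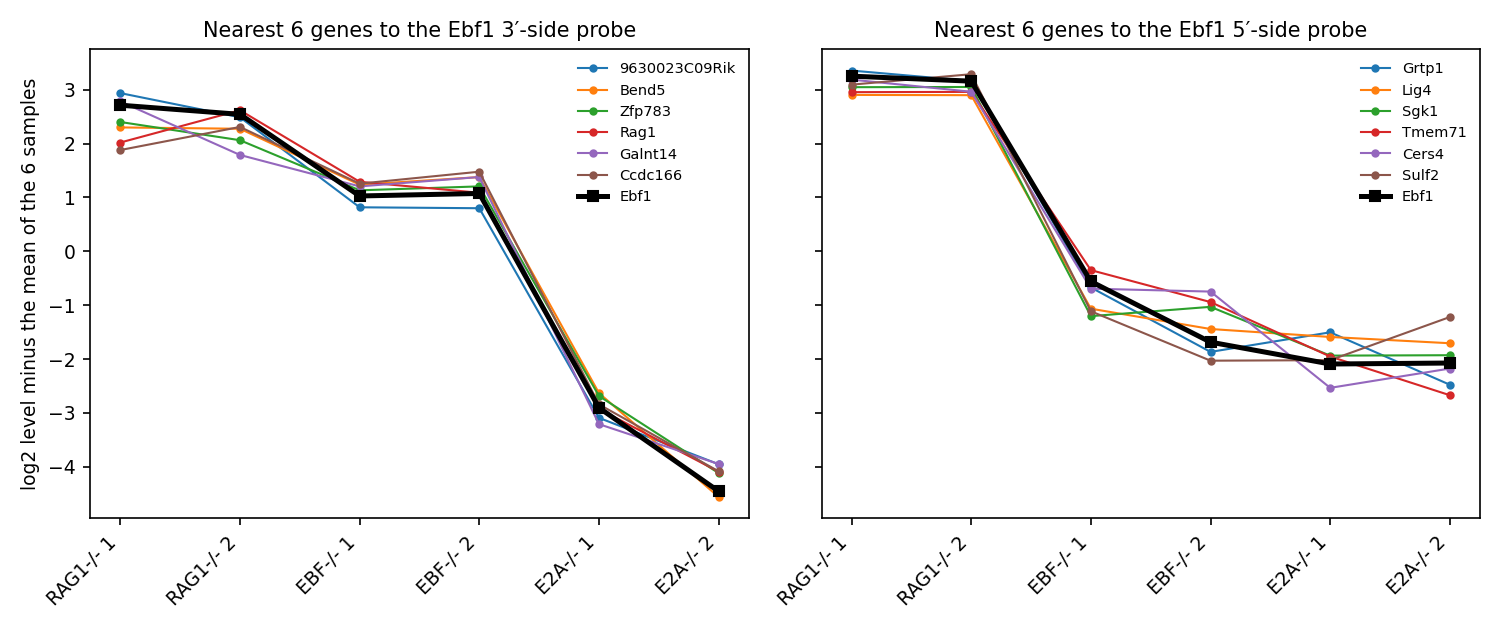
Log2 level minus the mean over the 6 samples (y axis) in each sample (x axis, RAG1-/- then EBF-/- then E2A-/-), for the 3′-side Ebf1 probe with its 6 nearest genes (left) and the 5′-side Ebf1 probe with its own 6 (right). EBF-/- samples lie above the mean on the left and below it on the right.

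Factors known to act upstream of Ebf1 or with it were tested as a list of 20 genes, all measured. In RAG1-/- against EBF-/- cells 8 rose and 3 fell, where 20.3% and 22.9% of 12834 genes rose and fell, and the median change was 0.15 on the log2 scale, against 0.026 over all genes. Against E2A-/- cells 11 rose and 6 fell in RAG1-/- cells, where 22.6% and 23.3% of genes did, with a median of 0.53 against 0.022 over all genes. Between EBF-/- and E2A-/- cells 5 were higher and 1 lower in EBF-/- cells, where 12.8% and 11.3% of genes were, with a median of 0.076 against 0.0013.

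Tcf3, the E2A gene itself, is targeted in E2A-/- cells. Its log2 levels were 15.04 and 14.73 in RAG1-/- cells, 13.42 and 13.41 in EBF-/- cells, and 10.80 and 9.45 in E2A-/- cells. It was lowest in E2A-/- cells but well above background in both, and the labels do not give the deleted part. The limma difference was 4.75 (adjusted p = 0.0019) from RAG1-/- cells and 3.31 (adjusted p = 0.011) from EBF-/- cells.

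Foxo1, a partner of E2A and EBF1, had log2 levels of 13.94 and 13.97 in RAG1-/- cells, 8.41 and 8.40 in EBF-/- cells, and 8.60 and 7.02 in E2A-/- cells. It was 5.51 higher in RAG1-/- than in EBF-/- cells (limma adjusted p = 0.0019) and did not differ detectably between EBF-/- and E2A-/- cells (0.61, limma adjusted p = 0.37). Ets1, a factor of lymphocytes, gave 14.05 and 14.15 in RAG1-/- cells, 11.96 and 11.89 in EBF-/- cells, and 10.09 and 8.23 in E2A-/- cells. It passed all 3 limma comparisons, RAG1-/- against EBF-/- cells, RAG1-/- against E2A-/- cells and EBF-/- against E2A-/- cells (adjusted p = 0.027, 0.0025 and 0.022), in the order of the 3′-side Ebf1 probe.

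Il7r, the IL-7 receptor chain, had log2 levels of 13.40 and 12.94 in RAG1-/- cells, 13.22 and 13.14 in EBF-/- cells, and 11.56 and 11.61 in E2A-/- cells. It was 1.59 higher in RAG1-/- (limma adjusted p = 0.0025) and 1.61 higher in EBF-/- (limma adjusted p = 0.0060) than in E2A-/- cells. Myb was likewise 1.19 higher in EBF-/- than in E2A-/- cells (limma adjusted p = 0.012) and Runx1 0.97 higher (limma adjusted p = 0.015). Mef2c fell in RAG1-/- cells, by 1.76 against EBF-/- cells (limma adjusted p = 0.0018) and by 1.64 against E2A-/- cells (limma adjusted p = 0.0016). Spi1, the gene of PU.1, fell by 1.18 in RAG1-/- against E2A-/- cells (limma adjusted p = 0.0205).

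The list of B-lineage targets of EBF1 held 18 genes, and 17 were kept. Of these 16 rose in RAG1-/- against EBF-/- cells and none fell, where 20.3% and 22.9% of all genes rose and fell, with a median change of 7.65 on the log2 scale, against 0.026 over all genes. Against E2A-/- cells 14 rose and none fell (22.6% and 23.3% of all genes), with a median of 6.45, against 0.022. Between EBF-/- and E2A-/- cells only 1 passed (12.8% and 11.3% of all genes were higher and lower), Rag1, which was 4.70 higher in EBF-/- cells (limma adjusted p = 0.0027), and the median was -1.23, against 0.0013. The 3′-side Ebf1 probe was 4.75 higher in EBF-/- cells in that comparison.

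Vpreb1, part of the surrogate light chain, had log2 levels of 18.60 and 18.44 in RAG1-/- cells, 9.12 and 9.03 in EBF-/- cells, and 12.13 and 9.04 in E2A-/- cells. Cd79a, a signalling chain of the B-cell receptor, gave 10.44 and 10.21 in RAG1-/- cells, 3.12 and 3.11 in EBF-/- cells, and 5.60 and 3.15 in E2A-/- cells. Cd79a was at least 24.1-fold higher in RAG1-/- than in EBF-/- cells (limma adjusted p = 0.0036). Both genes are also members of the pro-B marker list, and both were higher in E2A-/- replicate 1 than in replicate 2.

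Pax5, the factor that holds B-cell commitment, had log2 levels of 14.23 and 14.00 in RAG1-/- cells, 7.04 and 6.55 in EBF-/- cells, and 9.37 and 6.83 in E2A-/- cells. Blnk, an adaptor of the receptor, was 6.88 higher in RAG1-/- than in EBF-/- cells (limma adjusted p = 0.00093) and 6.18 higher than in E2A-/- cells (limma adjusted p = 0.00084). Fcrla, an intracellular Fc receptor-like protein, had 12.03 and 11.37 in RAG1-/- cells, 6.85 and 6.71 in EBF-/- cells, and 5.58 and 3.83 in E2A-/- cells. Its difference between EBF-/- and E2A-/- cells, 2.11, did not pass (limma adjusted p = 0.070).

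Genes of other lineages that EBF1 or E proteins are known to oppose were mostly lower in RAG1-/- cells. Of 8 kept genes of 10, 7 fell and 1 rose in RAG1-/- against EBF-/- cells (median -2.97 on the log2 scale), where 22.9% and 20.3% of all genes did. Against E2A-/- cells 5 fell and 2 rose (median -2.23), where 23.3% and 22.6% did. In EBF-/- against E2A-/- cells 4 rose and none fell (median 0.55), where 12.8% and 11.3% did. Gata3, a T-cell factor, had log2 levels of 3.39 and 3.71 in RAG1-/- cells, 10.45 and 10.30 in EBF-/- cells, and 8.45 and 8.61 in E2A-/- cells. It was at least 50.2-fold lower in RAG1-/- than in EBF-/- cells (limma adjusted p = 0.00053). Id2, an inhibitor of E proteins, fell by 2.66 against EBF-/- cells (limma adjusted p = 0.00073) and by 1.21 against E2A-/- cells (limma adjusted p = 0.0025). Id3, another such inhibitor, moved the other way and was 6.15 higher in RAG1-/- than in EBF-/- cells (limma adjusted p = 0.0022).

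Other members of the EBF family gave little signal. Ebf2, Ebf3 and Zfp423 were not well above background in any sample, and Ebf4 had log2 levels between 5.00 and 6.01 and passed no limma comparison. Zfp521, which encodes a zinc-finger protein that binds EBF1, had 11.02 and 10.39 in RAG1-/- cells, 3.00 and 2.93 in EBF-/- cells, and 3.97 and 3.00 in E2A-/- cells. Zfp521 was at least 31.3-fold higher in RAG1-/- than in EBF-/- cells (limma adjusted p = 0.0014).

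Ebf1 is also known from stromal cells, and S17 cells shared the pre-pro-B cultures. Of 12 stromal markers, between 2 and 5 were well above background in any sample, and their mean log2 level was 5.34 and 5.52 in RAG1-/- cells, 6.14 and 5.83 in EBF-/- cells, and 4.89 and 5.84 in E2A-/- cells. Col1a1, Col3a1, Cxcl12, Pdgfra, Vcam1, Lum and Dcn were not well above background in any sample. Of the 4 that were kept, Col1a2 passed no limma comparison, and the other three did not share a pattern. Pdgfrb had log2 levels of 7.69 and 7.61 in RAG1-/- cells, 12.96 and 12.76 in EBF-/- cells, and 7.71 and 8.07 in E2A-/- cells, and was highest in EBF-/- cells. Thy1, which T cells also express, had 12.49 and 12.72 in RAG1-/- cells, 14.08 and 14.12 in EBF-/- cells, and 8.52 and 10.27 in E2A-/- cells. Fn1 had 7.46 and 5.77 in RAG1-/- cells, 3.34 and 3.75 in EBF-/- cells, and 3.96 and 3.44 in E2A-/- cells, and was well above background only in RAG1-/- cells. The part of stromal cells in the Ebf1 levels was not tested. The 12 T and NK markers averaged 5.76 and 6.15 in RAG1-/- cells, 8.78 and 8.79 in EBF-/- cells, and 6.22 and 6.55 in E2A-/- cells. The 12 myeloid markers averaged 6.90 and 9.87 in RAG1-/- cells, 8.13 and 7.82 in EBF-/- cells, and 9.44 and 9.69 in E2A-/- cells, and the 5 mast cell markers 4.63 and 7.27 in RAG1-/- cells, 5.08 and 5.89 in EBF-/- cells, and 3.998 and 4.28 in E2A-/- cells. RAG1-/- replicate 2, with the higher myeloid and mast cell means, had 12.38 at the 3′-side Ebf1 probe, against 12.55 in replicate 1, and the part of these cells in the Ebf1 levels was not tested.

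Along the locus, RAG1-/- lists held 79 of the 114 window peaks, EBF-/- lists 19, E2A-/- lists 11 and A12 lists 5, from 9, 6, 5 and 3 lists. Over the whole genome these lists held 131866, 63806, 88648 and 38839 peaks in the same order, so RAG1-/- lists held the most there too. The mock immunoprecipitation listed none in the window among its 807 peaks. Lists of the series ran from 807 to 38838 peaks, and the sequencing depth behind them is not given, so each count stands beside the mean of its own list per 800 kb of genome. A missing peak is only a peak not listed. Scores are the authors' own values per peak and were compared only within a list.

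E2A of RAG1-/- cells stood furthest above its genome mean among lists with more than 3 window peaks. The list held 18 E2A peaks in the window, against a genome mean of 3.60. H3K4me1 had 17 (mean 7.01), H3K4me2 16 (mean 8.08), CTCF 15 (mean 11.8), H3K9/14ac 5 (mean 4.04), H3K4me3 4 (mean 4.02) and FOXO1 3 (mean 0.479). EBF1 had 1 (mean 0.427) and H3K27me3 none (mean 0.648). Over the whole window, E2A, FOXO1 and both enhancer marks thus lay well above their own means, and the promoter marks close to theirs. This did not hold for H3K4me1 and the promoter marks in the interval before the 3′-side Ebf1 probe, as given below.

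EBF-/- cells listed fewer peaks there in each matched assay apart from H3K27me3. Their window held 1 E2A peak (mean 1.38), 3 H3K4me1 peaks (mean 2.30), 9 H3K4me2 peaks (mean 8.22), 2 H3K4me3 peaks (mean 2.76), 3 H3K9/14ac peaks (mean 4.36) and 1 H3K27me3 peak (mean 0.399). The E2A and H3K4me1 lists of EBF-/- cells were also shorter over the genome, with 4531 and 7544 peaks against 11846 and 23054 in RAG1-/- cells. The H3K4me2 lists were of like length, 27025 and 26549 peaks, with 9 window peaks in EBF-/- cells and 16 in RAG1-/- cells.

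**Figure D3:**
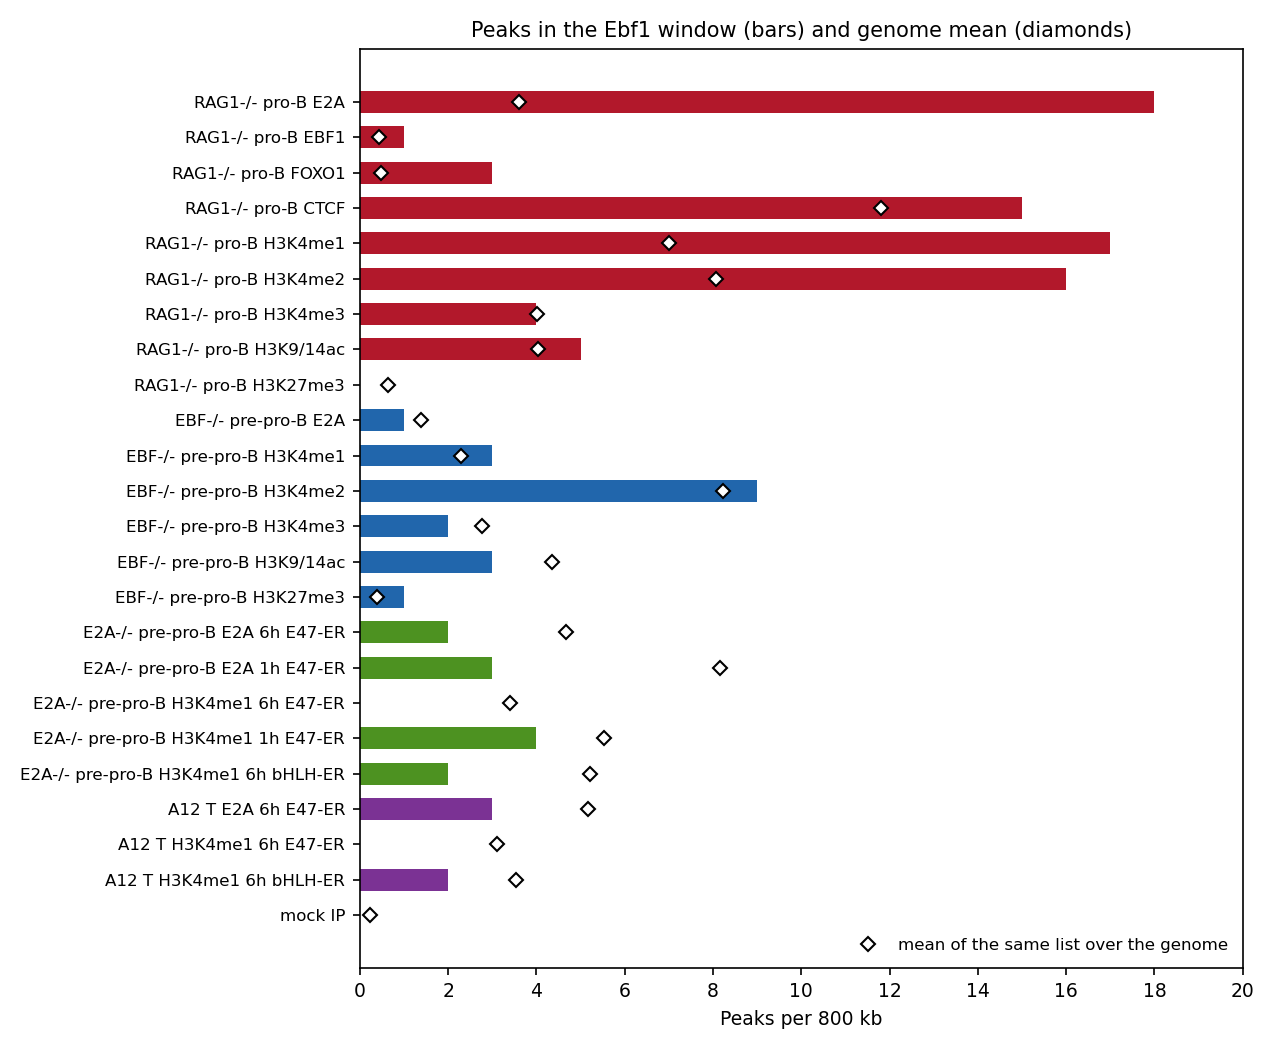
Peaks per 800 kb (x axis) in the Ebf1 window (bars) and as the mean of the same list over the genome (diamonds), for each of the 24 lists (y axis). The bar reaches 18 for RAG1-/- E2A against a mean of 3.60, while all E47-ER and bHLH-ER lists of E2A-/- and A12 cells fall below their diamonds.

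The probes split the window into the stretch up to the Rnf145 probe (209 kb), the interval from there to the 3′-side Ebf1 probe (440 kb) and the stretch beyond it (152 kb). They held 50, 50 and 14 peaks. RAG1-/- E2A peaks were spread over all 3 parts, with 5, 10 and 3 peaks, or 2.395, 2.27 and 1.98 per 100 kb against a genome mean of 0.450. RAG1-/- H3K4me1 peaks were fewer in the Ebf1 interval, with 3 there (0.682 per 100 kb) against 8 upstream (3.83) and 6 downstream (3.96). The density in the interval was below the genome mean of 0.877. RAG1-/- H3K4me3 and H3K9/14ac were also below their genome means there, each at 0.227 per 100 kb against 0.502 and 0.505. RAG1-/- H3K4me2 showed 6, 9 and 1. Of 17 H3K4me1 peaks, 5 overlapped an H3K4me2 peak, where 56.5% did over the genome, and 5 of 16 H3K4me2 peaks overlapped an H3K4me1 peak, where 49% did.

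The E2A peak of RAG1-/- cells with the highest score in the window, 55, lay at chr11:44238875-44239074, far upstream and beyond the Il12b probe, and 97.1% of that list scored lower. Next were peaks at chr11:44792599-44792798 (score 43) and chr11:44793895-44794094 (score 38), 55.6 and 54.3 kb before the 3′-side probe, and one at chr11:44933117-44933316 (score 38), 84.9 kb beyond it. The median score of the 18 was 17.0, against 13 over the whole list. The longest stretch between successive E2A peaks, 161.6 kb, lay inside the Ebf1 interval.

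Of the 18 peaks, 6 overlapped no peak of any other list by at least 1 base, and 6 overlapped a histone peak of RAG1-/- cells. Neither count was set against the genome, so whether it is unusual was not tested. By mark, 5 overlapped H3K4me2, where 42.6% of all RAG1-/- E2A peaks did, 2 overlapped H3K4me1, where 28.1% did, 1 overlapped H3K9/14ac, where 19.2% did, and none overlapped H3K4me3, where 17.3% did. With CTCF 2 overlapped (11.9% genome-wide), with EBF1 1 (5.75%) and with FOXO1 1 (5.58%). None of the 18 overlapped an E2A peak of EBF-/- cells, where 17.1% of all RAG1-/- E2A peaks did, nor did the 1 EBF-/- peak overlap a RAG1-/- one, where 44.7% of EBF-/- E2A peaks did. From the side of CTCF, 2 of 15 peaks overlapped an E2A peak of RAG1-/- cells, where 3.63% of all CTCF peaks did.

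The single EBF1 peak of the window, at chr11:44339754-44339953, had a score of 9, the lowest in its list. It lay 508.4 kb before the 3′-side probe, between the probes of Ublcp1 and Rnf145, and no EBF1 peak was listed in the Ebf1 interval. It overlapped an E2A peak (score 15), an H3K4me2 peak (score 91) and an H3K9/14ac peak (score 13) of RAG1-/- cells. H3K4me1 peaks of E2A-/- cells with E47-ER for 1 h (score 21) and bHLH-ER (score 17), and of A12 cells with bHLH-ER (score 28), were listed at the same place. Genome-wide, 48.6% of EBF1 peaks overlapped an E2A peak.

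FOXO1 peaks of RAG1-/- cells lay at chr11:44318946-44319021 (score 9), chr11:44768472-44768547 (score 8) and chr11:44958499-44958574 (score 10). The first overlapped an E2A peak, and 42% of FOXO1 peaks did so over the genome. CTCF peaks of RAG1-/- cells numbered 7 upstream, 7 in the Ebf1 interval and 1 beyond it. The 2 with the highest score, 55, lay at chr11:44454373-44454572 and, 3.5 kb beyond the 3′-side probe, at chr11:44851640-44851839, where E2A and H3K4me1 peaks of RAG1-/- cells overlapped it.

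**Figure D4:**
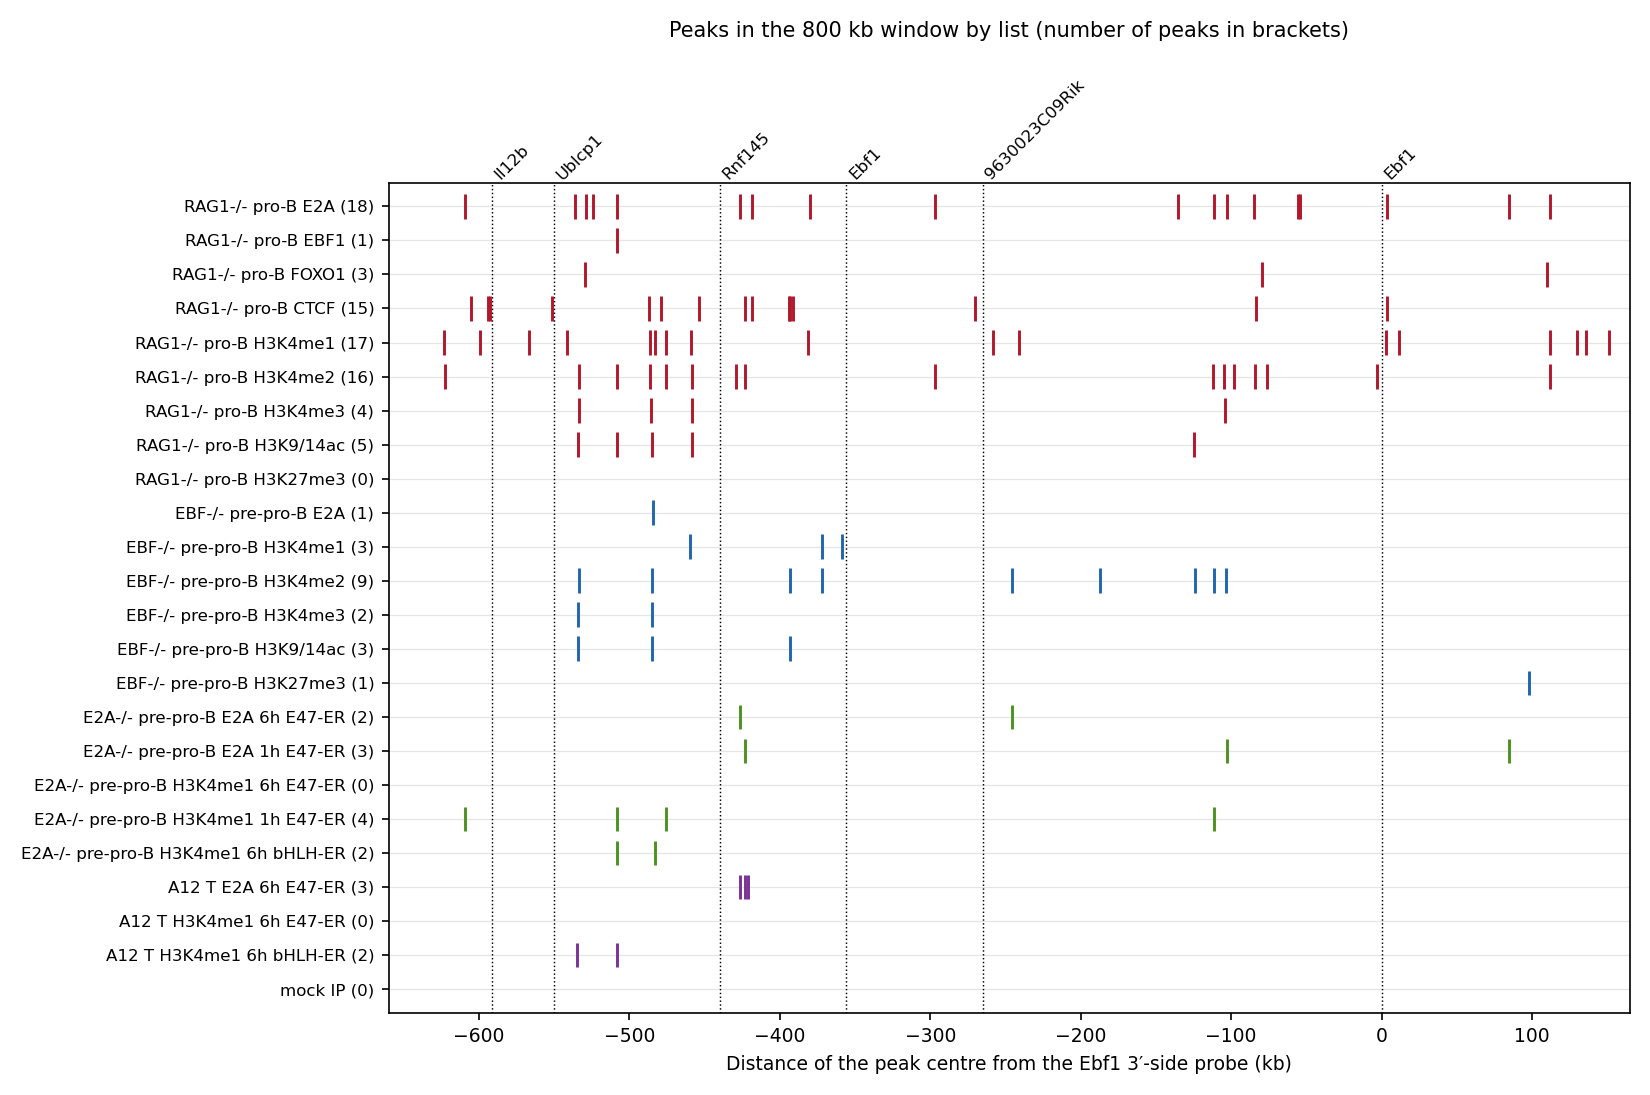
Position of each window peak by list (rows, with its number of peaks) as the distance of its centre from the 3′-side Ebf1 probe in kb (x axis); dotted lines mark array probes. RAG1-/- E2A peaks are spread over the whole window, the single EBF1 peak lies between Ublcp1 and Rnf145, and no E2A peak of EBF-/- cells lies between Rnf145 and the 3′-side Ebf1 probe.

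The clearest site marked in EBF-/- and not in RAG1-/- lists lay at that first CTCF peak. EBF-/- cells had an H3K4me2 peak at chr11:44454441-44455440 with a score of 129, above 98.9% of their list, and an overlapping H3K9/14ac peak with a score of 36. No histone peak of RAG1-/- cells was listed there, while CTCF peaks with scores of 55 and 13 in RAG1-/- cells overlapped it. CTCF was not profiled in EBF-/- cells.

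Between the 2 cell types, most H3K4me2 peaks of the window did not overlap by at least 1 base. Near misses count as not shared under this rule. For example, peaks at chr11:44361682-44362681 in RAG1-/- cells and chr11:44362859-44363858 in EBF-/- cells did not overlap. Both nevertheless overlapped the same H3K4me3 and H3K9/14ac peaks of the 2 cell types. Of 16 RAG1-/- H3K4me2 peaks, 3 overlapped one of EBF-/- cells, where 63.6% of all did, and of 9 EBF-/- peaks, 3 overlapped one of RAG1-/- cells, where 62.4% of all did. These genome shares include peaks of all scores, while the window peaks scored lower. Their median score was 42.5 against 59 over the list in RAG1-/- cells, and 32 against 40 in EBF-/- cells. For H3K4me1, 1 of 17 RAG1-/- peaks overlapped one of EBF-/- cells (12.1% genome-wide) and 1 of 3 EBF-/- peaks one of RAG1-/- cells (37.1%). The strongest RAG1-/- H3K4me1 peak of the window, at chr11:44606881-44607880 with a score of 102, stood alone in the Ebf1 interval. Both H3K4me3 peaks of EBF-/- cells lay before the Rnf145 probe and overlapped a RAG1-/- one (96.2% genome-wide), as 2 of 4 RAG1-/- peaks did in turn (66%). For H3K9/14ac, 2 of 5 RAG1-/- peaks overlapped one of EBF-/- cells (80% genome-wide) and 2 of 3 EBF-/- peaks one of RAG1-/- cells (74.1%). Within the Ebf1 interval H3K4me3 was listed once, in RAG1-/- cells, at chr11:44743933-44744932 (score 24). The EBF-/- H3K27me3 peak lay at chr11:44945565-44946564 beyond the 3′-side probe, with a score of 15, and overlapped none of RAG1-/- cells, where 21.8% of its list did.

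Added E2A gave fewer listed peaks at the locus than the E2A of RAG1-/- cells. In E2A-/- pre-pro-B cells with E47-ER, 2 E2A peaks were listed at 6 h (mean 4.68) and 3 at 1 h (mean 8.15), and in A12 cells 3 at 6 h (mean 5.18). These counts are below the genome mean of their lists, whereas the count for the E2A of RAG1-/- cells was above its mean. The median over 800 kb stretches of the genome was lower than the mean, at 1, 2 and 1 for these lists. Their counts therefore lay above their medians, as did that of RAG1-/- E2A (median 1). The lists were longer than that of RAG1-/- cells, with 15386, 26792 and 17030 peaks against 11846. Neither of the 6 h peaks overlapped a 1 h peak, where 80.7% of 6 h peaks did over the genome, and so none of the 3 peaks at 1 h overlapped one at 6 h, where 46.3% did. The 1 h peaks scored low, from 7 to 9 against a list median of 11, and the 6 h peaks scored 7 and 11 against 9. The genome shares include peaks of all scores.

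One site was shared widely. At chr11:44421458-44421657 an E2A peak of E2A-/- cells with E47-ER for 6 h (score 11) overlapped one of A12 cells (score 32, above 97.2% of that list) and one of RAG1-/- cells (score 10). It lay 426.7 kb before the 3′-side probe, in the Ebf1 interval near Rnf145. Thus 1 of the 2 peaks at 6 h overlapped one of A12 cells (46.1% genome-wide), and 1 of the 3 A12 peaks one of E2A-/- cells at 6 h (41.7%). Of the 18 RAG1-/- E2A peaks, 3 overlapped any of these E47-ER lists, 1 at 6 h (26.3% genome-wide), 2 at 1 h (37.2%) and 1 in A12 cells (25.1%). From the other side, 1 of 2 peaks at 6 h, 2 of 3 at 1 h and 1 of 3 in A12 cells overlapped a RAG1-/- E2A peak, where 20.3%, 16.5% and 17.5% did.

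H3K4me1 was listed at 4 window sites in E2A-/- cells with E47-ER for 1 h (mean 5.52), at 2 with bHLH-ER for 6 h (mean 5.22) and at none with E47-ER for 6 h (mean 3.398). In A12 cells it was listed at none with E47-ER (mean 3.098) and at 2 with bHLH-ER (mean 3.54). Of the 4 sites at 1 h, 1 lay in the Ebf1 interval, at chr11:44736125-44737124 (score 12, the lowest of its list). It overlapped H3K4me2 peaks of RAG1-/- and EBF-/- cells and an E2A peak of RAG1-/- cells at chr11:44736602-44736801 (score 17).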

How the data were processed

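RNA was measured in 6 samples on 4 two-colour Agilent arrays, each group with 1 sample per dye. The deposited intensity values come from Agilent Feature Extraction 9.5.3.1, which subtracted background and normalized the dyes, and deposited log10 ratios of red over green come from the same files, per the file headers. Peak lists, 1 per library, give each peak's position in build mm8 and a score by the authors, with HOMER named in the submitters' processing notes; peak settings and depth are not given in the sources used here. The labels do not give separate animals or cultures for the replicates, so p-values measure only the spread between these samples, which may be technical.

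Processed signals were put on the log2 scale, quantile normalized over the 6 channels and averaged per probe. Of 41099 probes, 22133 were kept because some group had both its samples well above background. They entered 1 limma 3.58.1 fit (R 4.3.3) of all 6 samples, with terms for group and dye, a trended prior and a random block for array (correlation 0.0675). Adjusted p is Benjamini-Hochberg over all kept probes, at 0.05, and errors are standard errors of the fit. Residual degrees of freedom were 2, and the prior added 2.54. The number of arrays limits the precision. The fit and the overlap of peaks were tested on simulated data. Gene lists used the brightest kept probe of each of 12834 genes. Probe strands matched RefSeq strands (GRCm38.p6, names and strand only) for 99.6% of 18781 probes.

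Peaks were counted in the window and shared if they overlapped by at least 1 base, with no test. Named genes were the Ebf1 probes, all probes in the window, the 8 nearest genes by profile, of which the nearest 6 are given and the rest not reported here, and members of 9 lists. The members and lists were chosen with earlier results of these data known. Alternatives were normexp correction (offset 50), scaling to the 75th percentile, no filter on dim probes, the brightest probe per gene, no dye term, no array block, a replicate block, each sample left out, peak centres within 200 bases, the 75% of each list with the highest score, and the window beyond the Rnf145 probe.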

Additional observations from a re-analysis of the deposited data

How the results depend on the processing

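The difference between RAG1-/- and EBF-/- cells at the 3′-side Ebf1 probe stayed near 1.5 on the log2 scale and moved across the threshold. It passed with normexp correction (1.46, limma adjusted p = 0.0083), without the dye term (1.53, limma adjusted p = 0.042) and with a replicate block (1.54, limma adjusted p = 0.040), and with single samples left out it ran from 1.10 to 2.00 (limma adjusted p from 0.0030 to 0.24). The other 2 differences at that probe passed under every setting tried, from 5.04 to 7.14 between RAG1-/- and E2A-/- cells and from 3.58 to 5.56 between EBF-/- and E2A-/- cells. At the 5′-side probe the difference between RAG1-/- and EBF-/- cells ran from 3.74 to 4.92 with single samples left out and passed except without either RAG1-/- replicate. Same-numbered replicates did not deviate together (correlations 0.19, -0.41 and 0.025), so the numbers were not taken as pairs, and the block changed no other call.

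Counts of called probes moved more. Without the filter on dim probes 2508 were called between EBF-/- and E2A-/- cells in place of 4506, and with 1 probe per gene 5681 between RAG1-/- and EBF-/- cells in place of 8523, from fewer features tested. With single samples left out, counts ran from 3369 to 8784 for RAG1-/- against EBF-/- cells, 4560 to 9618 for RAG1-/- against E2A-/- cells and 731 to 7875 for EBF-/- against E2A-/- cells. In the 75% of each list with the highest score, the window held no EBF1 peak, so 0 overlapped E2A. The overlaps of RAG1-/- E2A with EBF-/- E2A and of 6 h E47-ER E2A with RAG1-/- E2A kept their counts at that setting. With centres within 200 bases, these and the EBF1 overlap kept their counts. No other overlap was rerun under either setting. What moved the Ebf1 values was not tested. Dim signal limits the 5′-side probe, which is measured only in RAG1-/- cells.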
